A study of Mus musculus with 9 samples.

Results

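The genes described here encode 7 RNA-binding proteins of germ cells: Nanos1, Nanos2, Nanos3, Pum2, Dazl, Ddx4 and Dnd1. They were chosen by name, as the Nanos, Pumilio, Dazl, Ddx4 and Dnd1 genes given for the set, and make up 7 of the 46078 gene identifiers in the count files. All 7 were found and all 7 passed the filter on low counts in each comparison.

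RNA-seq was done on EGFP-SSCs, a mouse spermatogonial stem cell (SSC) line of WT genotype that carries green fluorescent protein, with 3 biological replicates per time point (0 h, 24 h, 48 h). At 0 h the cells were in normal culture, which for this line means mitomycin C-treated mouse embryonic fibroblast feeders and medium with GDNF, basic FGF and EGF. For 24 h and 48 h they were mixed 1:1 with somatic cells from the testes of busulfan-exposed mice of 3 to 7 days of age, in medium with retinoic acid, BMP-4/7, activin A, testosterone, FSH and BPE, and EGFP-positive cells were then sorted by flow cytometry. The labels give this sort for 24 h and 48 h, and whether the 0 h cells were sorted in the same way is not stated there. The authors write that SSCs from different culture stages were sorted by flow cytometry before RNA-seq, without naming 0 h in that statement. All libraries come from 1 cell line, so the replicates, labelled as biological, measure the spread within that line. The 0 h group differs from the other groups in medium and companion cells as well as in time, and these cannot be told apart.

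Germ cells control many mRNAs after transcription, and these proteins are central to that control. NANOS proteins are zinc finger proteins that bind RNA together with Pumilio (PUM) proteins and bring the CCR4-NOT complex, which shortens poly-A tails, to the bound mRNA. NANOS2 is known for keeping SSCs undifferentiated and for holding back meiosis in male germ cells, NANOS3 for the survival of primordial germ cells, and DND1 as a partner of NANOS2 on its target mRNAs. DAZL binds 3′ UTRs and supports translation and germ cell differentiation, and DDX4 (VASA) is an RNA helicase of the germ granules, where piRNAs are made.

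The 9 libraries held 16825251 to 22201892 counts. The replicates at 0 h differed from each other more than those at the other times did, with a chi-square per degree of freedom of 35.5 to 81.4 between pairs at 0 h and of 7.13 to 26 between pairs of later replicates. Genes of low GC content also differed in level between the 0 h replicates. The part of GC content in the chi-square was not tested. For the low-GC genes, the lowest of 4 equal groups by GC content, the median log2 deviation from the gene's mean over all libraries was 0.315, -0.031 and -0.484 in replicates 1 to 3 at 0 h, and between -0.142 and 0.228 in the other 6 libraries. Dazl lies at the 1.53 percentile of GC content among 18161 genes, Pum2 at the 13 and Ddx4 at the 16 percentile, whereas Nanos1 (48.5), Nanos2 (65.0), Dnd1 (68.7) and Nanos3 (83.7) do not lie in that group. The values of Dazl, Pum2, Ddx4 and Dnd1 that rest on 0 h are therefore given with and without single 0 h libraries.

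RefSeq promoters (build GRCm38.p6) were matched for 6 of the 7 genes, with none for Dnd1. Those of Nanos2, Nanos3 and Dazl are shown because Nanos2 and Nanos3 fell together and Dazl was not called in any comparison, and because they differ in CpG content. Each runs 5′ to 3′ on the gene's strand from 250 bases before the RefSeq start to the last base before the gene's annotated exon, with CCAAT in capitals (ATTGG where it is on the other strand).
Nanos2, chr7:18987274-18987399, + strand: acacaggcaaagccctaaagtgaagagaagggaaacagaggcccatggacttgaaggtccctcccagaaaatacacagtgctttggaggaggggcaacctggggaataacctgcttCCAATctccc
Nanos3, chr8:84176553-84176802, - strand: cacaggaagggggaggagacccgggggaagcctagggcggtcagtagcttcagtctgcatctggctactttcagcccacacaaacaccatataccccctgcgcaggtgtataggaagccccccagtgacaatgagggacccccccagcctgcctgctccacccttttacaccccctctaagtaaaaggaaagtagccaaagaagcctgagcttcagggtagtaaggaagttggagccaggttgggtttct
Dazl, chr17:50293637-50293870, - strand: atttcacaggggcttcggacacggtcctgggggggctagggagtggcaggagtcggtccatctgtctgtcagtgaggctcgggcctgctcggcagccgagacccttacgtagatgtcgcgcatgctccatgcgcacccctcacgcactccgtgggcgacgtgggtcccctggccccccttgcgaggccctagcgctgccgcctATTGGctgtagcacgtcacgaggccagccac
The Nanos3 stretch lies in an intron of a longer annotated transcript of the gene. In the full RefSeq window of 300 bases, which reaches 50 bases past the start, Nanos2 had 0 CpG (percentile 5.43 among 32851 promoters), Nanos3 had 3 (percentile 31.4) and Dazl had 28 (percentile 87.1). Nanos1 had 34 and Ddx4 had 38, and the 3 promoters of Pum2 had 35 to 44. CCAAT, on either strand, was found in the windows of Nanos1 (1 match), Nanos2 (2), Dazl (1) and Ddx4 (2), and in 37.4% of all promoters. CACGTG, which reads the same on both strands, was found in that of Ddx4 and in 7.15% of all promoters, and TATAAA, on either strand, in that of Nanos2 and in 13.6%. The windows also take in bases of annotated exons, and matches there are counted. In the Nanos2 bases shown, which end before its exon, there is 1 CCAAT match and no TATAAA. None of the matches of Ddx4 lies wholly before its exon. These counts describe letters and not sites of binding.

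PUM proteins bind the element TGTANATA (N is any base, and mRNA has U for T). It was searched on the sense strand of 3′ UTRs of 1 transcript per gene and was present in 23.2% of 20981 genes. Pum2 had 2 matches, and Nanos1 had 1. No match was found in the 3′ UTRs of Nanos2, Nanos3, Dazl, Ddx4 or Dnd1, which at 172 to 1852 bases are shorter than those of Nanos1 (2845 bases) and Pum2 (2841 bases). Among genes with 3′ UTRs of like length (within 20%), 43.4% had a match for either of the latter and 32.0% for Dazl. The matches are shown in 30 bases of sequence each, with the element in capitals, because Pum2 and Nanos1 were both called at 48 h against 24 h, in opposite directions.
Pum2, chr12:8750154-8750183, + strand: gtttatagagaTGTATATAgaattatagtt
Pum2, chr12:8750407-8750436, + strand: atgtacagaatTGTATATActtataattgt
Nanos1, chr19:60757710-60757739, + strand: taatcatatcgTGTACATAtttggaaacgg

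Of the 7 genes, 3 were called changed at 24 h against 0 h, at an adjusted p of up to 0.05, where 25.5% of the 17592 genes tested were called (11.4% higher and 14.2% lower). Nanos1 rose, and Nanos2 and Nanos3 fell. At 48 h against 0 h, 3 were called, where the background was 31.6% of 17755 genes (13.0% higher and 18.5% lower), and all 3 fell: Nanos2, Nanos3 and Dnd1. With library size alone as the scaling, the share of higher genes among all called genes went from 44.5% to 57.1% at 24 h and from 41.2% to 52.8% at 48 h. At 48 h against 24 h, 3 were called against a background of 21.3% of 17499 genes (8.61% higher and 12.7% lower), of which Pum2 rose and Nanos1 and Dnd1 fell. With all 9 libraries in 1 edgeR fit, which takes in the wider spread at 0 h, 0 of the 7 were called in this last comparison (2 at an unadjusted p under 0.05, and 3 by DESeq2 on the 6 libraries), and 1043 of 18262 genes were. Dazl and Ddx4 were called in none of these comparisons. The median log2 fold change of the 7 was -0.21, -0.18 and -0.30 in the 3 comparisons, beside 0.01, 0.02 and -0.0045 over all genes tested. Both comparisons with 0 h share the 0 h libraries.

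**Figure D1:**
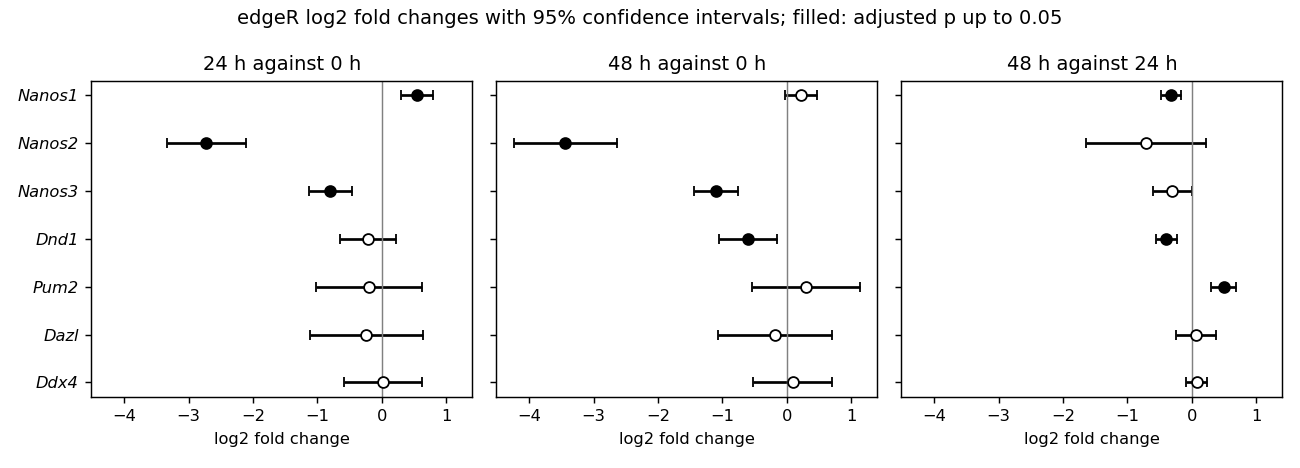
Log2 fold changes of the 7 genes (x axis) in the 3 comparisons, from edgeR with 95% confidence intervals and 3 libraries a group. Filled points have an adjusted p of up to 0.05. Nanos2 lies farthest from 0, at -2.72 and -3.44 against 0 h, and the intervals of Dazl, Ddx4 and Pum2 against 0 h are wide and include 0.

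Nanos2 (ENSMUSG00000051965) lies on chromosome 7 from 18987400 to 18988962 (GRCm38) and has 1 exon. It was at 5.05, 6.05 and 4.78 CPM (counts scaled to library size) in the 0 h replicates, at 0.981, 0.695 and 0.683 CPM at 24 h, and at 0.628, 0.564 and 0.253 CPM at 48 h. Every library at 24 h and 48 h was below every library at 0 h. The highest at 48 h was below the lowest at 24 h. The share of all genes whose groups separate in this way was not counted, for this or the genes below. The levels of Nanos2 rest on 81 to 122 counts per library at 0 h. At 24 h they rest on 13 to 20 and at 48 h on 5 to 13. Its level fell 6.6-fold by 24 h (log2 fold change -2.72 ± 0.263 (SE), edgeR, adjusted p = 0.000375 after Benjamini-Hochberg) and 10.8-fold by 48 h (log2 fold change -3.44 ± 0.343, edgeR, adjusted p = 0.00037). From 24 h to 48 h the log2 fold change was -0.71, with an interval of -1.64 to 0.22, and did not pass the test (edgeR, adjusted p = 0.249). Of the exonic bases of Nanos2, 49.0% also lie in the antisense gene Gm45058, which has no entry in the count files. The library kit does not mark strand, so reads from the 2 genes cannot be told apart.

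Nanos3 (ENSMUSG00000056155, chromosome 8, 84173731 to 84185217) moved in the same direction and less far. It was at 14.5, 14.7 and 16.6 CPM at 0 h, at 8.69, 7.96 and 9.42 CPM at 24 h, and at 7.85, 6.90 and 6.58 CPM at 48 h. The 3 groups did not overlap, and every library at 48 h was below every library at 24 h. Nanos3 fell 1.74-fold by 24 h (log2 fold change -0.80 ± 0.142, edgeR, adjusted p = 0.00603) and 2.14-fold by 48 h (-1.10 ± 0.146, edgeR, adjusted p = 0.00134). Between 24 h and 48 h the log2 fold change of -0.30 did not pass the test (95% interval -0.60 to 0.00, edgeR, adjusted p = 0.138). Both falls from 0 h passed in every alternative fit and in every fit without 1 library.

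Nanos1 (ENSMUSG00000072437, chromosome 19, 60755987 to 60759914, 1 exon) went the other way, and not in 1 direction throughout. Its level was 42.4, 38.6 and 38.2 CPM at 0 h, 56.8, 57.5 and 59.0 CPM at 24 h, and 45.6, 45.4 and 48.6 CPM at 48 h. The 24 h libraries were the highest, the 48 h libraries lay between, and no groups overlapped. Nanos1 rose 1.47-fold by 24 h (log2 fold change 0.55 ± 0.106, edgeR, adjusted p = 0.00834) and fell by 0.32 on the log2 scale from 24 h to 48 h (SE 0.0675, edgeR, adjusted p = 0.0102). At 48 h it was 0.23 above 0 h on the log2 scale, which did not pass (95% interval -0.02 to 0.48, edgeR, adjusted p = 0.149) but did with library size alone as the scaling (0.34, edgeR, adjusted p = 0.0449) and with offsets for GC content and length (0.32, edgeR, adjusted p = 0.0329). The fall after 24 h did not pass without replicate 1 at 48 h (-0.29, edgeR, adjusted p = 0.067) or with all 9 libraries in 1 fit (-0.31, edgeR, adjusted p = 0.0677).

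The changes over the first and the second day were compared in 1 contrast over the 9 libraries, the log2 change from 24 h to 48 h minus that from 0 h to 24 h. Nanos1 and Nanos2 passed, 2 of 7 genes, where 14.0% of 18262 genes did (6.64% with a positive and 7.39% with a negative value). For Nanos1 the value was -0.85 ± 0.148 (edgeR, adjusted p = 0.00476). The contrast tests the difference of the steps and not each step. In a fit of the same 9 libraries, the change of Nanos1 from 24 h to 48 h did not pass (-0.31, edgeR, adjusted p = 0.0677). For Nanos2 it was 2.04 ± 0.583, a fall by 24 h followed by no called change (edgeR, adjusted p = 0.0452). The call for Nanos2 was lost in 6 of the 9 fits that left out 1 library, with values of 1.78 to 2.37 over the 9.

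Because the 3 Nanos genes differ in length, their levels were compared in FPKM, computed here from the counts over the union of exons. At 0 h Nanos3 held 52.7% to 58.4% of their summed FPKM, Nanos1 31.6% to 36.4% and Nanos2 9.95% to 13.1%. At 24 h Nanos1 held 58.5% to 61.8%, Nanos3 36.3% to 39.8% and Nanos2 1.70% to 2.56%, and at 48 h the ranges were 56.6% to 62.9%, 36.2% to 41.4% and 0.824% to 1.96%. The sum itself was 29.6 to 30.7 FPKM at 0 h, 23.7 to 25.6 at 24 h and 19.4 to 20.5 at 48 h. The FPKM ratio of Nanos1 to Nanos3, which depends on no scaling between libraries, was 0.542 to 0.690 at 0 h, 1.47 to 1.70 at 24 h and 1.37 to 1.74 at 48 h. Nanos3 was thus the most abundant Nanos transcript per length in every 0 h library and Nanos1 in every library of the other times.

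**Figure D2:**
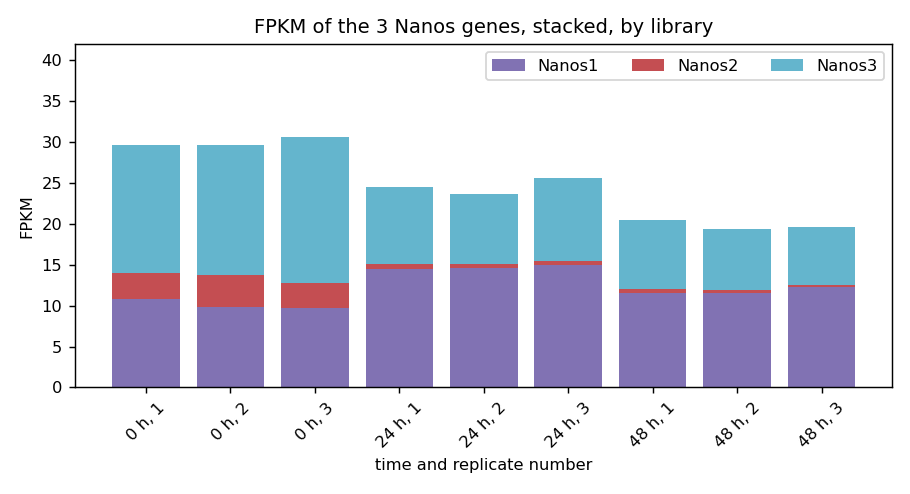
FPKM of Nanos1, Nanos2 and Nanos3 (y axis, stacked) in each of the 9 libraries (x axis, time and replicate number). The summed bar is 29.6 to 30.7 at 0 h and 19.4 to 20.5 at 48 h, the Nanos2 segment shrinks from at least 9.95% of it to at most 1.96%, and the larger segment is Nanos3 at 0 h and Nanos1 later.

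Dnd1 (ENSMUSG00000044595, chromosome 18, 36763671 to 36766214) was at 112, 153 and 191 CPM in replicates 1 to 3 at 0 h, at 132, 123 and 133 CPM at 24 h, and at 95.4, 107 and 95.5 CPM at 48 h. The 0 h libraries spread over 1.71-fold and enclosed all 24 h libraries, and the 48 h libraries lay below all others. At 24 h against 0 h the log2 fold change was -0.21 (95% interval -0.65 to 0.22, edgeR, adjusted p = 0.462). Dnd1 fell by 0.61 on the log2 scale at 48 h against 0 h (SE 0.192, edgeR, adjusted p = 0.0476) and by 0.39 at 48 h against 24 h (SE 0.0694, edgeR, adjusted p = 0.00475). With all 9 libraries in 1 fit, the change from 24 h to 48 h did not pass (-0.38, edgeR, adjusted p = 0.226). The call against 0 h was lost in 5 of the 6 fits without 1 library (all but that without replicate 1 at 0 h), where the values ran from -0.79 to -0.38 and the edgeR adjusted p from 0.00361 to 0.161, and with DESeq2's size factors (-0.60), library size alone (-0.50) or 10 counts required in every library (-0.59). Of its exonic bases, 5.8% lie in Wdr55 on the opposite strand, and 11.3% of its 75-base windows match Wdr55 or the pseudogene Dnd1-ps, so a part of its counts is uncertain.

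Pum2 (ENSMUSG00000020594, chromosome 12, 8674134 to 8752581) was at 269, 173 and 87.6 CPM in replicates 1 to 3 at 0 h, a 3.07-fold spread that enclosed every later library. It was at 146, 158 and 155 CPM at 24 h and at 218, 192 and 241 CPM at 48 h, without overlap between these 2 times. Pum2 rose 1.41-fold from 24 h to 48 h (log2 fold change 0.50 ± 0.086, edgeR, adjusted p = 0.00437). The value was 0.28 with offsets for GC content and length (edgeR, adjusted p = 0.00634). It did not pass with all 9 libraries in 1 fit (0.51, edgeR, adjusted p = 0.395). The median deviation of the low-GC genes was -0.142, -0.002 and 0.007 in replicates 1 to 3 at 24 h, and 0.164, -0.008 and 0.228 at 48 h. Against 0 h its log2 fold changes were -0.20 (95% interval -1.02 to 0.62) and 0.30 (-0.55 to 1.14), and neither passed (edgeR, adjusted p = 0.739 and 0.583).

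Dazl (ENSMUSG00000010592, chromosome 17, 50279395 to 50293636) had the highest level of the 7 at each time. It was at 1349.7, 830.4 and 421 CPM in replicates 1 to 3 at 0 h, at 596, 819.7 and 769 CPM at 24 h, and at 783, 633 and 881 CPM at 48 h. The 0 h libraries spread over 3.21-fold and enclosed all 6 later libraries. No change passed the test in the fits without offsets for GC content: the log2 fold change was -0.24 at 24 h (95% interval -1.12 to 0.63) and -0.18 at 48 h (-1.07 to 0.71) against 0 h, and 0.06 between 24 h and 48 h (-0.25 to 0.38), with edgeR adjusted p-values of 0.698, 0.757 and 0.79. The intervals against 0 h reach -1.12, so these data do not show that Dazl stayed at 1 level.

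Ddx4 (ENSMUSG00000021758, chromosome 13, 112598333 to 112652475) was at 461, 398 and 213 CPM at 0 h, at 329, 367 and 383 CPM at 24 h, and at 386, 366 and 393 CPM at 48 h. Replicate 3 at 0 h was the lowest of all and replicate 1 at 0 h the highest, with all later libraries between them. The log2 fold changes were 0.02 (95% interval -0.59 to 0.63), 0.09 (-0.52 to 0.71) and 0.08 (-0.08 to 0.24) at 24 h and 48 h against 0 h and at 48 h against 24 h (edgeR, adjusted p = 0.972, 0.822 and 0.47). Between 24 h and 48 h the interval of Ddx4 was about as narrow as those of Nanos1 and Dnd1, which were called.

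**Figure D3:**
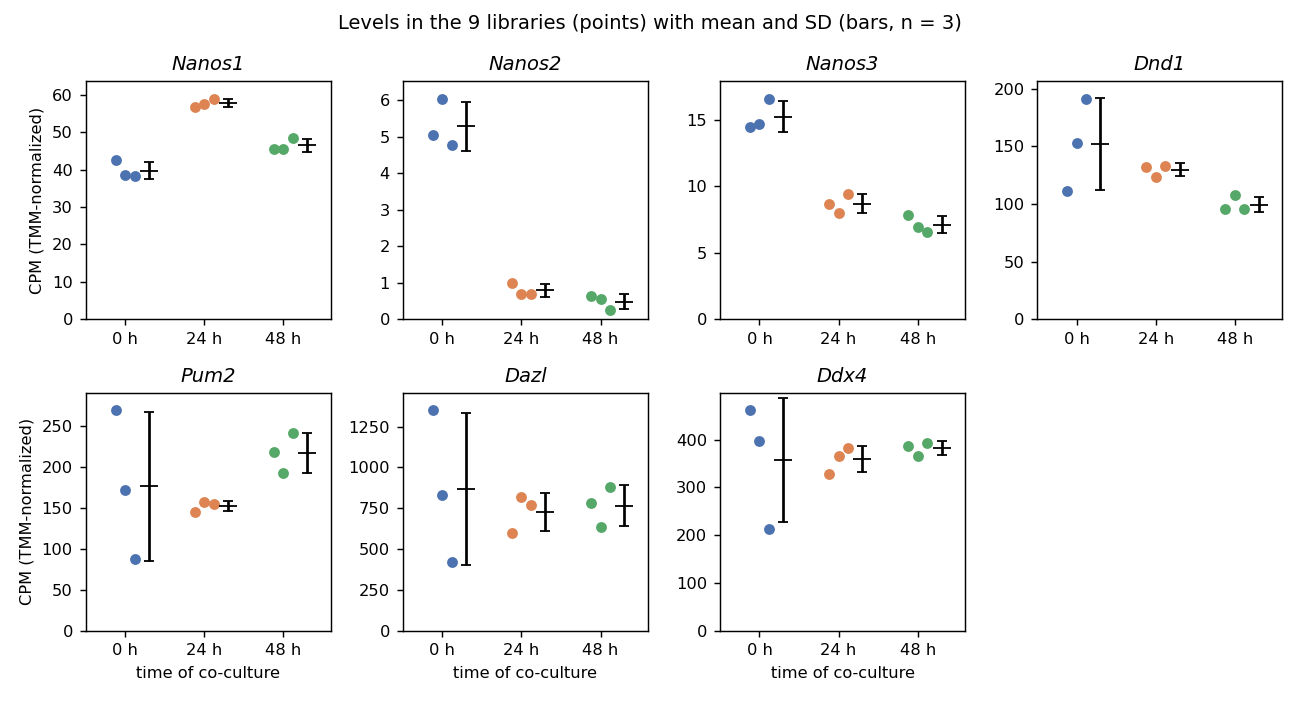
CPM (y axis, linear from 0) of the 7 genes in each library at 0 h, 24 h and 48 h (x axis), with the mean and SD of the 3 libraries beside the points. The groups of Nanos1, Nanos2 and Nanos3 do not overlap, whereas the 0 h points of Pum2, Dazl and Ddx4 enclose all later points. The share of all genes whose groups do not overlap was not counted.

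At 0 h, Dazl, Pum2 and Ddx4 ordered the replicates from 1 (highest) to 3 (lowest) as the low-GC genes did, and Dnd1 ordered them the other way. Without replicate 1 at 0 h, the log2 fold change at 24 h was 0.25 for Pum2, 0.24 for Dazl and 0.25 for Ddx4. Without replicate 3 at 0 h it was -0.50 for Pum2, -0.55 for Dazl and -0.22 for Ddx4. The direction of these genes against 0 h thus depended on which 0 h library entered, and no value of either fit passed the edgeR test. With offsets for GC content and length, the rise of Pum2 from 24 h to 48 h was 0.28, in place of 0.50. The fall of Dnd1 at 48 h against 0 h was 0.42, in place of 0.61, and both passed. The log2 fold change of Dazl from 24 h to 48 h turned to -0.22 (edgeR, adjusted p = 0.109). The part of GC content in the spread at 0 h and in the step from 24 h to 48 h, beyond these values, was not tested.

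**Figure D4:**
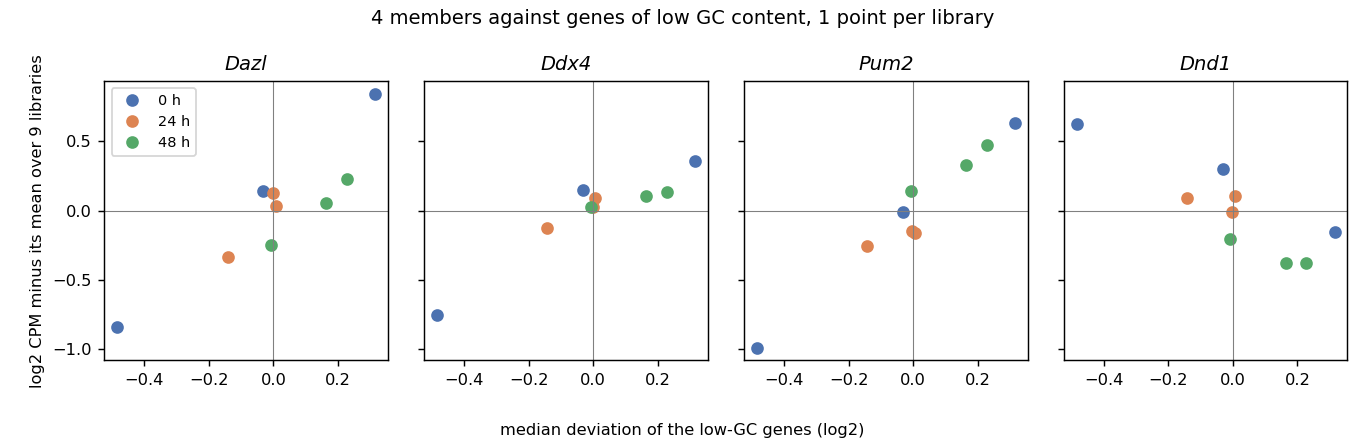
Log2 CPM of Dazl, Ddx4, Pum2 and Dnd1 relative to the gene's mean over the 9 libraries (y axis) against the median deviation of the low-GC genes (x axis, log2), 1 point per library, coloured by time. The replicates at 0 h lie at 0.315, -0.031 and -0.484 on the x axis and span more of the y axis than the 24 h or the 48 h libraries do in each plot.

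Per length, the order of the 7 genes at 0 h was Dazl (227 ± 122 FPKM, SD, n = 3), Ddx4 (119 ± 42.7), Dnd1 (63.0 ± 16.5), Pum2 (24.3 ± 12.5), Nanos3 (16.5 ± 1.26), Nanos1 (10.1 ± 0.596) and Nanos2 (3.39 ± 0.429). Dazl and Ddx4, Ddx4 and Dnd1, and Pum2 and Nanos3 overlapped between libraries there. At 24 h and 48 h the order was the same but for Nanos1 and Nanos3, which changed places, and no neighbours overlapped. At 48 h the means were 200.4 ± 32.8 FPKM for Dazl, 127 ± 4.75 for Ddx4, 41.2 ± 2.87 for Dnd1, 29.9 ± 3.38 for Pum2, 11.8 ± 0.452 for Nanos1, 7.69 ± 0.714 for Nanos3 and 0.308 ± 0.128 for Nanos2. Dazl stood at the 99.0 percentile of 18161 genes at all times and Ddx4 at 97.9 to 98.4, while Nanos2 went from the 45 to the 16.2 and the 10.6 percentile. The longest transcript in place of the union of exons gave the same order at each time.

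**Figure D5:**
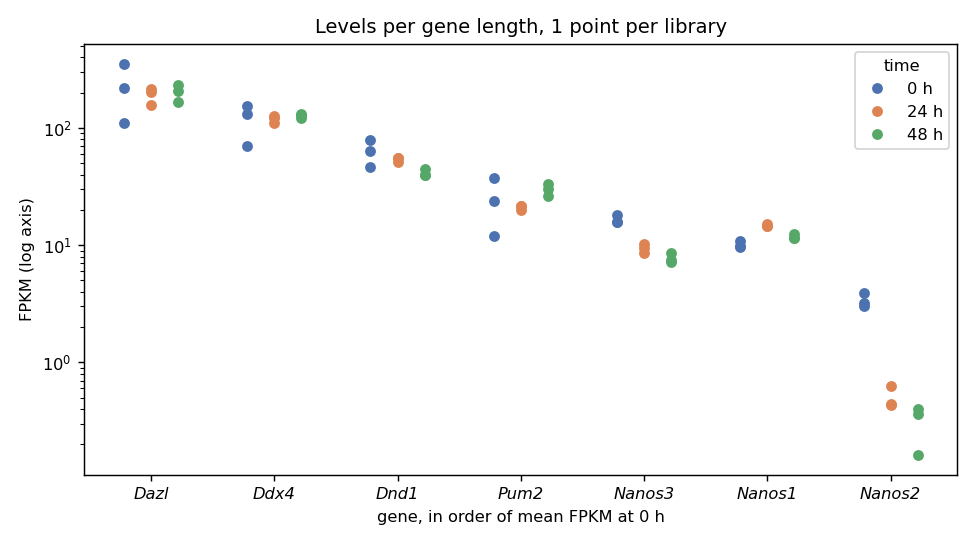
FPKM (y axis, log scale) of the 7 genes in order of their mean at 0 h (x axis), with 1 point per library and colours for time. The levels run from a mean of 227 for Dazl to 3.39 for Nanos2 at 0 h, and the points of Nanos1 rise above those of Nanos3 at 24 h and 48 h.

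Other genes of the same machinery were read from lists written from general knowledge, and their counts stand beside 25.5%, 31.6% and 21.3% of all genes called at 24 h and 48 h against 0 h and at 48 h against 24 h. Among 12 genes of the CCR4-NOT complex and its TOB adaptors, 0 rose and 2 fell at 24 h against 0 h, 0 rose and 2 fell at 48 h against 0 h, and 2 rose and 2 fell at 48 h against 24 h by edgeR (median log2 fold changes -0.05, -0.12 and 0.07). DESeq2 called none higher against 0 h either, and none of the 12 was higher in those comparisons at an unadjusted p under 0.05. Tob1, which links CCR4-NOT to its mRNAs and slows proliferation, fell from 45.9 ± 5.79 CPM before co-culture to 18.4 ± 0.978 after 24 h and 18.1 ± 0.607 after 48 h (log2 fold changes -1.30 and -1.34, edgeR, adjusted p = 0.000505 and 0.000288). The falls of the complex subunits Cnot11 (-0.46 at 24 h) and Cnot9 (-0.43 at 48 h) against 0 h were smaller. The deadenylase subunits Cnot6, Cnot6l, Cnot7 and Cnot8 passed in no comparison, and they are named after their values were seen.

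Among 4 genes of the DAZL family and its partners, Dazap2 rose by 0.71 and 0.57 (log2) at 24 h and 48 h against 0 h. Pabpc1, the poly-A binding protein that DAZL binds, fell by 0.41 and by 0.37. Boll, a DAZL relative of later germ cells, was at 16.7 ± 0.769 CPM at 48 h and rose by 0.39 (log2) from 24 h to 48 h (edgeR, adjusted p = 0.0238).

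Among 16 germ granule partners of DDX4, 4 rose and 2 fell at 24 h, 5 rose and 2 fell at 48 h against 0 h, and 0 rose and 3 fell from 24 h to 48 h by edgeR (median log2 fold changes 0.10, 0.13 and 0.00). Over all genes, 11.4% were higher and 14.2% lower, 13.0% higher and 18.5% lower, and 8.61% higher and 12.7% lower in these comparisons. For the count of 0, DESeq2 likewise called 0 higher, and 2 were higher at an unadjusted p under 0.05. DESeq2 called only 1 of the 16 from 24 h to 48 h, where edgeR called 3. Tdrd6, a Tudor protein of the granules of later germ cells, fell from 20.6 ± 1.71 CPM before co-culture to 2.41 ± 0.366 after 24 h and 1.33 ± 0.252 after 48 h (log2 fold changes -3.08 and -3.94, edgeR, adjusted p = 3.83e-05 and 1.97e-05). Tdrd5 fell by 0.76 and by 0.81. Pld6, a mitochondrial protein needed for piRNA production, rose from 8.96 ± 1.89 CPM to 34.9 ± 1.66 and 34.0 ± 2.86 (log2 fold changes 1.97 and 1.92, edgeR, adjusted p = 0.000216 and 0.00025). Piwil2, a PIWI protein and the most abundant of the list, rose from 521 ± 40.4 CPM to 817 ± 24.9 and 885 ± 19.8 (log2 fold changes 0.66 and 0.77, edgeR, adjusted p = 0.00386 and 0.00147). The summed level of the 16 genes was 2070 to 2230 CPM at 0 h, 2500 to 2570 at 24 h and 2570 to 2650 at 48 h. Within this sum, Piwil2 alone went from 521 CPM at 0 h to 885 CPM at 48 h. Ddx4 had no called change.

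Of 11 other germ cell RNA-binding protein genes, 2 rose and 1 fell at 24 h, 2 rose and 3 fell at 48 h against 0 h, and 4 rose and 2 fell from 24 h to 48 h (edgeR), where 25.5%, 31.6% and 21.3% of all genes were called. Rbm46, which works with YTHDC2 and MEIOC at meiotic entry, rose by 0.95 and 1.19 (log2, edgeR, adjusted p = 0.0332 and 0.0149). Msi1, a translational regulator of stem cells, rose by 1.05 and 0.77 (edgeR, adjusted p = 0.0115 and 0.0459). Ybx2, which binds and stores germ cell mRNAs, fell by 0.72 at 48 h against 0 h and by 0.78 from 24 h to 48 h (edgeR, adjusted p = 0.00668 and 0.00178).

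Among 6 mRNAs that have been reported as targets of NANOS2 or DAZL, 0 passed at 24 h against 0 h by edgeR (1 by DESeq2, and 3 at an unadjusted p under 0.05, all of them higher). At 48 h against 0 h, 3 rose and 0 fell by edgeR, with a median log2 fold change of 0.42, and from 24 h to 48 h 3 rose and 1 fell. Over all genes, 25.5% were called at 24 h against 0 h. At 48 h against 0 h 13.0% were higher and 18.5% lower, and from 24 h to 48 h 8.61% were higher and 12.7% lower. The list pools targets of both proteins, which were not told apart, so it cannot show an effect of either protein. Sycp3, a protein of the meiotic chromosome axis, rose from 22.5 ± 9.61 CPM before co-culture to 54.1 ± 4.27 after 48 h (log2 fold change 1.26, edgeR, adjusted p = 0.0175). Taf7l, a testis relative of a general transcription factor subunit, rose by 0.82 and the spindle gene Tpx2 by 0.50 (edgeR, adjusted p = 0.0291 and 0.00871). DESeq2 likewise called 3 higher at 48 h against 0 h, and Sohlh2 was the 1 that fell, by 0.23 from 24 h to 48 h. With all 9 libraries in 1 edgeR fit, the comparison of 48 h with 24 h called 1 of the 12 CCR4-NOT and TOB genes, 1 of the 16 granule genes, 0 of the 4 DAZL family genes, 2 of the 11 other RNA-binding protein genes and 0 of the 6 targets. Of all genes, it called 1043 of 18262.

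The markers of the cells moved with time as well. The summed level of 10 markers of undifferentiated spermatogonia lay between 2410 and 2820 CPM before co-culture, between 827 and 914 after 24 h and between 628 and 725 after 48 h, led by Ret (643 CPM) at 0 h and Sall4 later, and 7 of the 10 fell and 1 rose at 24 h, and 9 fell at 48 h, against 0 h. That of 6 markers of differentiating spermatogonia lay between 98.1 and 116, between 1820 and 1880, and between 1090 and 1140 CPM, led by Stra8 (912 CPM at 24 h), and 4 of 6 rose at either time. Nanos2 and Nanos3 fell at both times. In bulk samples, fewer cells of a type and less RNA per cell cannot be told apart.

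Markers of stromal, myoid, Sertoli and Leydig cells rose in the co-culture libraries, relative to 0 h, where a sort for EGFP is not stated in the labels. The sum of 8 fibroblast or stroma markers was 316 to 411 CPM at 0 h, 2140 to 2500 at 24 h and 2940 to 3260 at 48 h (Col1a1 at 157, 1110.0 and 1400.0 CPM), and 5 of 8 rose and 1 fell against 0 h at either time. For 6 peritubular myoid markers it was 13.7 to 15.6, 146 to 207 and 263 to 321 CPM (Acta2 the most abundant at 24 h and 48 h), and 5 of 6 rose. For 8 Sertoli markers it was 15.2 to 19.2, 52.7 to 84.0 and 66.8 to 70.7 CPM (Sox9 the most abundant at 0 h, Inha later), and 6 of the 7 tested rose at either time (and 1 fell at 24 h), while Fshr had no count at 0 h and at most 3 in each later library. For 6 Leydig markers it was 4.48 to 6.79, 24.6 to 38.5 and 25.2 to 32.5 CPM (Star, then Cyp11a1), with Hsd3b1 and Insl3 at 0 counts at 0 h and Lhcgr at 0 at 24 h, and 2 and 3 of the 3 tested rose. The sums of 5 endothelial markers (Vwf the most abundant) lay between 70.1 and 77.1 CPM before co-culture and between 20.9 and 24.0 after 48 h, with 3 of 5 lower and 1 higher, and those of 6 macrophage markers (Cd68) between 16.2 and 18.9 and between 8.48 and 10.1, with 1 of the 4 tested lower and 1 higher at 48 h. The part of these cells in the changes of the 7 genes was not tested.

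Up to 3 genes whose log2 CPM followed each member most closely over the 9 libraries were taken from 15646 genes, as a description. For Nanos2 they were Cmtm8, Mmp25 and Cntn2 (Pearson r = 0.996, 0.995 and 0.992), and for Nanos3 Crtac1, Acat2 and Jakmip1 (0.992, 0.992 and 0.990). Nanos1 was followed by Iqgap3, Rfk and Wdfy1 (0.989, 0.985 and 0.985). Pum2 was followed by Dhx15, Eps15 and Ythdf3 (0.994, 0.991 and 0.990), which lie at the 17, 9.64 and 3.17 percentiles of GC content. For Dazl 2 are given, Xpo1 and Ercc6l (0.995 and 0.989, GC percentiles 7.47 and 20.5), and Ddx4 was followed by Polr3g, Hspa13 and Nudcd1 (0.988, 0.982 and 0.982; GC percentiles 19.2, 5.80 and 10.0). The genes that followed Dnd1 were Rab35, Egfl7 and Amdhd2 (0.994, 0.991 and 0.990; GC percentiles 73.6, 86.9 and 95.7). The genes given for Dazl, Ddx4 and Pum2 lay in the low-GC group, as do these 3 themselves. In the order named, those for Nanos1 lay at GC percentiles 80.6, 26.7 and 27.1. Those for Nanos2 lay at 69.1, 69.1 and 82.2, and those for Nanos3 at 82.6, 48.8 and 88.3. The part of GC content in these likenesses was not tested. Among the members, the values of r were 0.969 for Nanos2 and Nanos3, 0.908 for Dazl and Ddx4, 0.909 for Pum2 and Ddx4, and -0.87 for Pum2 and Dnd1. All points share the same 9 libraries and their depth and base composition.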

How the data were processed

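The authors sequenced poly-A RNA of EGFP-SSCs in triplicate cultures (0 h, 24 h, 48 h) and deposited raw read counts per gene, 1 file per library. Per the labels, fastp, HISAT2 and featureCounts were used with GRCm38. Their versions, the annotation release and the strand setting are not given in the sources used here. Symbols, positions and lengths came from GENCODE release M21 (GRCm38), which names 45229 of the 46078 identifiers. The 849 without a name hold at most 0.121% of the counts.

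Groups followed the labels. Each comparison used the 6 libraries of its groups. Counts were filtered with filterByExpr, scaled with TMM and fitted in edgeR 4.0.16 (R 4.3.3). Its quasi-likelihood test is two-sided. P-values were adjusted over all genes tested by Benjamini-Hochberg, and 0.05 was the threshold. "Adjusted p" refers to this adjustment, and SE is the standard error of the log2 fold change. The change between steps used the 9 libraries in 1 fit. CPM and FPKM were computed from the counts with TMM over the 9 libraries, and log2 CPM with a prior count of 2. Intervals cover the spread between replicates, and counts of 3 or fewer were taken as the floor. The procedure was tested on simulated data. Shared sequence was searched with BLAST in 75-base windows at 97% identity.

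The alternatives were DESeq2 1.42.0, edgeR with the size factors of DESeq2 or with library size alone, no filter, 10 counts in every library, a joint fit of the 9 libraries, a block for the replicate number, offsets for GC content and length (splines with 5 and 4 degrees of freedom), both together, the longest transcript for FPKM, and leaving out each library. Promoters are from RefSeq. Named genes are the 7 members, up to 3 called genes with the largest change per list where some group averaged 1 CPM or more, the most abundant gene of each marker list, and the 3 genes most like each member. The members and lists were chosen with earlier results of these data known. A few genes that these rules name are not reported here.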

Additional observations from a re-analysis of the deposited data

Results flagged for a closer look

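For 2 genes the change over the second day differed from that over the first by the contrast of the 2 steps (edgeR, 9 libraries, 3 per time). Of all 18262 genes tested, 14.0% passed this contrast. For Nanos1 the difference was -0.852 on the log2 scale (edgeR, adjusted p = 0.00476), with all 3 libraries at 24 h above all libraries at 0 h and 48 h. For Nanos2 it was 2.04 (edgeR, adjusted p = 0.0452), with levels of 5 to 20 counts per library after 0 h. The call of Nanos2 was lost in 6 of the 9 fits without 1 library. No group was searched for a far-out library, since each holds 3.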

How the results depend on the processing

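The calls of Nanos1, Nanos2 and Nanos3 at 24 h, and of Nanos2 and Nanos3 at 48 h, against 0 h passed in all fits that could test them. Nanos2 could not be tested at 48 h with 10 counts in every library. That fit left 1 member called at 48 h against 0 h (Dnd1 was lost too), where 4920 of 15179 genes were called. With all 9 libraries in 1 fit, 0 members were called at 48 h against 24 h (2 at an unadjusted p under 0.05, and 3 by DESeq2 on 6 libraries), with edgeR adjusted p-values of 0.0677 for Nanos1, 0.395 for Pum2 and 0.226 for Dnd1. That fit shares its estimate of the spread with the 0 h libraries. It called 1043 of 18262 genes in this comparison. With unequal steps, 1 member was called with library size alone, no filter, 10 counts in every library, or the replicate block. Nanos2 was lost or not tested there (1.90, 2.01 and 2.03 for the fits that tested it, in the order scaling, filter, block). In the order of the fits listed, 2780 of 18262, 2173 of 33756, 2298 of 15018 and 1763 of 18262 genes were called.

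Library size alone moved the median log2 fold change of all genes to 0.118 at 24 h and 0.127 at 48 h. At 48 h Dnd1 was then at -0.50 (edgeR, adjusted p = 0.0866) and Nanos1 at 0.34, with that shift included. With GC and length offsets, reversed values were -0.00925 (Ddx4, 48 h against 0 h), -0.22 and -0.0611 (Dazl and Ddx4, 48 h against 24 h) and, for unequal steps, -0.113 (Dazl) and -0.105 (Ddx4, and -0.0591 with library size alone). With the block added to the offsets they were -0.221 (Dazl, edgeR adjusted p = 0.0315) and -0.061 (Ddx4) at 48 h against 24 h, and -0.123 and -0.118 for unequal steps. The cause of these changes was not tested.

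Fits without 1 library called 3 to 4 members at 24 h and 2 to 3 at 48 h against 0 h. They called 2 to 3 at 48 h against 24 h and 1 to 3 with unequal steps. Of all genes, they called 2607 of 18080 to 6023 of 18036 at 24 h against 0 h. At 48 h against 0 h it was 3471 of 18309 to 7116 of 18408. At 48 h against 24 h it was 1857 of 17920 to 4356 of 17952. With unequal steps it was 1295 of 18752 to 4336 of 18722. Pum2 was the gene added with unequal steps, without replicate 3 at 0 h (1.02, edgeR, adjusted p = 0.0245). Log2 values that changed sign ran, at 24 h, from -0.495 to 0.25 (Pum2), -0.546 to 0.235 (Dazl), -0.218 to 0.252 (Ddx4) and -0.392 to 0.0123 (Dnd1, called without replicate 1 at 0 h, edgeR adjusted p = 0.0491). At 48 h against 0 h they ran from -6.45e-05 to 0.741 (Pum2), -0.487 to 0.292 (Dazl) and -0.143 to 0.324 (Ddx4). At 48 h against 24 h Dazl ran from -0.0656 to 0.182, and for unequal steps Dazl ran from -0.146 to 0.633, Ddx4 from -0.147 to 0.324 and Dnd1 from -0.373 to 0.0262. The extremes against 0 h came without replicate 1 or replicate 3 at 0 h.

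No pairing of the samples by replicate number was seen. Deviations of same-numbered libraries correlated at -0.28 to 0.196 (9 pairs), and of others at -0.392 to 0.38 (18 pairs). With 3 libraries a group, these values cannot exclude a pairing. With the replicate block, Dnd1 at 48 h against 0 h did not pass (-0.58, edgeR, adjusted p = 0.0735). Depth limits Nanos2 after 0 h.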
